A study of Mus musculus with 6 samples.

Results

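The genes described here are the G1 cyclins and CDK inhibitors, 10 of the 34745 genes in the deposited table, chosen by symbol: the D cyclins *Ccnd1*, *Ccnd2* and *Ccnd3*, the E cyclins *Ccne1* and *Ccne2*, the CIP/KIP inhibitors *Cdkn1a* and *Cdkn1b*, and the INK4 inhibitors *Cdkn2a*, *Cdkn2b* and *Cdkn2c*. They were read in cardiac fibroblasts obtained on Day 7 after myocardial infarction (MI) from the hearts of KDM5B knockout mice (3 KO-labelled libraries) and WT mice (3 WT-labelled libraries). KDM5B removes methyl groups from lysine 4 of histone H3. All mice were C57BL/6 and 8 to 10 weeks old, both groups underwent MI, and the WT mice were littermates. The knockout mice lack the bases of *Kdm5b* that encode the JmjC domain, and no driver that would restrict the deletion to fibroblasts is described. The labels do not say whether the 3 libraries of a group came from separate animals, and the p-values therefore measure only the spread between these libraries. In such bulk RNA, fewer cells of a type and less RNA per cell cannot be told apart.

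D cyclins bind CDK4 and CDK6 and start the phosphorylation of the retinoblastoma protein RB, which holds back the E2F transcription factors through G1. E cyclins bind CDK2, complete this phosphorylation and open S phase, when E2F switches on the replication genes. INK4 proteins block CDK4 and CDK6 themselves, whereas CIP/KIP proteins bind whole cyclin and CDK complexes. Adult cardiac fibroblasts are mostly quiescent and enter the cell cycle for a limited time after MI, so these genes are read as the gate between rest and division.

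Each library held 12025403 to 15329427 counts. *Kdm5b* had 98.1, 107 and 105 CPM (counts scaled to library size, here with TMM factors) in the KO-labelled libraries and 108, 129 and 123 in the WT-labelled ones. Its log2 fold change was -0.22 (SE 0.07, adjusted p = 0.0574 from edgeR), so the test did not call it at the threshold of 0.05. It was called without WT replicate 1 (-0.29, adjusted p = 0.0188 from edgeR), with upper quartile scaling (-0.26, adjusted p = 0.0324) and with the replicate number as a block (-0.21, adjusted p = 0.0271), and lay at 0.17 under marker scaling (adjusted p = 0.0871). The count is for the whole gene, and reads inside and outside the deleted bases were not separated. The fibroblast markers were abundant in all 6 libraries, with a summed level of 3316 to 3820 FPKM (the count divided by gene length and library total) in the KO-labelled libraries and 4536 to 4806 in the WT-labelled ones, and 11 of 12 were called lower in the KO-labelled libraries with TMM scaling (12.5% of all genes tested were). With the marker scaling described below none of the 12 was called and their median log2 fold change was -0.04. The endothelial markers summed to 447 to 598 FPKM against 121 to 123, with 16 of 20 called higher (17.7% of all genes tested were), none of 20 at 0 and no overlap of the labels. The cardiomyocyte markers summed to 358 to 397 against 482 to 498 FPKM (7 of 10 lower) and the macrophage markers to 823 to 850 against 1015 to 1090 FPKM (5 of 10 lower and 1 higher). The mural markers summed to 134 to 137 against 136 to 138 FPKM (2 of 8 tested higher, 4 lower), and the lymphocyte markers to at most 1.18 FPKM, with *Cd3e*, *Cd3d*, *Cd8a* and *Nkg7* at 0 in every library. The mural and lymphocyte sums overlapped between the labels. The fibroblast, endothelial, cardiomyocyte and macrophage sums moved with the labels together with the results below, and their part in them was not tested. *Xist* (1105 to 1924 counts) and the Y-linked gene *Ddx3y* (807 to 1293 counts) were both counted in every library, although the study's methods describe male mice for the MI operation.

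All 10 members passed the expression filter, as did 14084 genes in total. By edgeR's quasi-likelihood test, 1 member was higher in the KO-labelled libraries (*Ccnd1*) and 3 were lower (*Ccnd2*, *Cdkn2a* and *Cdkn2b*), beside 17.7% of all genes tested higher and 12.5% lower. In 6 of the 10 members the labels did not overlap, 2 with all libraries labelled KO above and 4 with all below, where 47.0% of all genes tested did not overlap. The median log2 fold change was 0.10 over the members and -0.02 over all genes tested. The members thus did not move as a group, and *Ccnd1* stood alone in size. When the libraries were scaled so that the cardiomyocyte and macrophage markers have a median ratio of 1 (marker scaling), the median of all genes tested became 0.38, 60.1% of them were called higher and 0.355% lower, and 6 members were called higher and none of the 10 lower. Only the rise of *Ccnd1* was called in the same direction under all scalings.

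The INK4 genes *Cdkn2a* and *Cdkn2b* are neighbours on chromosome 4, 11635 bases apart and on the same strand, and fell by like amounts. The promoter windows of both are therefore shown, from 250 bases before to 50 bases after the RefSeq start (GRCm38.p6, minus strand, written 5′ to 3′). *Cdkn2a* has a window for each of its starts: the upstream start leads to the transcript of p19ARF, which guards p53, and the downstream start to that of p16INK4a. The window of the upstream start of *Cdkn1a* (plus strand) is shown because *Cdkn1a*, which encodes p21, is the standard target of p53 in this group. Capitals mark matches to TTTCGCGC, TTTCCCGC, TTTGGCGC or TTTGCCGC (E2F), GGGCGG (GC box), TGACGTCA (ATF/CRE) and the p53 element (a pair of abutting half-sites with at most 1 mismatch), each searched on both strands. Of the 10 members, 7 had windows, 11 windows in all.
Cdkn2b, chr4:89310983-89311282: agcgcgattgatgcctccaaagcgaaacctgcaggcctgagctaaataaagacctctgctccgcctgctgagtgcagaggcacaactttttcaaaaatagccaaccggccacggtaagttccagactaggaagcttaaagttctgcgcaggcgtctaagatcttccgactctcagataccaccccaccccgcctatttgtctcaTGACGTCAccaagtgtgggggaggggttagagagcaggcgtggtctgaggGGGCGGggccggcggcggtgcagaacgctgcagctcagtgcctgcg
Cdkn2a, upstream start, chr4:89294570-89294869: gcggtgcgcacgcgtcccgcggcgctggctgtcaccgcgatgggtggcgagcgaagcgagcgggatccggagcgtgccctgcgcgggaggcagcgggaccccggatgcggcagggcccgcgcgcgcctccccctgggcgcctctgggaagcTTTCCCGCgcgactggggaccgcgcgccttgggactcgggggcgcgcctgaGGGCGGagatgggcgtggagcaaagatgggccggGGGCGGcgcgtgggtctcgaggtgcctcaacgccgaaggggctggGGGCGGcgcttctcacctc
Cdkn2a, downstream start, chr4:89282143-89282442: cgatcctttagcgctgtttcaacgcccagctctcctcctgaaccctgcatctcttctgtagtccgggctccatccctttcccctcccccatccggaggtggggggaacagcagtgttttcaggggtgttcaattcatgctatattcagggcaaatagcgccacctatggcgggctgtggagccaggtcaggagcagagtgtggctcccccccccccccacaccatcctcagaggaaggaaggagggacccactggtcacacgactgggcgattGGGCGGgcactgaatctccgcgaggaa
Cdkn1a, upstream start, chr17:29090729-29091028: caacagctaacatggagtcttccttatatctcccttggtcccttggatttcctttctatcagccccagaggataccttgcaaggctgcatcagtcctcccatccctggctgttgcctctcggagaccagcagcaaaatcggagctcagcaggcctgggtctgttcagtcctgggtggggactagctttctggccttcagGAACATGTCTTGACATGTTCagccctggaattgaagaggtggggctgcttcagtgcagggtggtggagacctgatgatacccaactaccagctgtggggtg

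The *Cdkn2b* window held an ATF/CRE match whose first base lies 46 bases before the start, and such a match is in 1.79% of 32851 mouse promoter windows. It also held a GC box, which 35.7% of all windows have. The upstream *Cdkn2a* window held an E2F match 99 bases before the start, found in 2.26% of all windows, and 3 GC boxes, and the downstream window held a GC box. The upstream *Cdkn1a* window held a p53 element 51 bases before the start, found in 0.0883% of all windows. The window of the downstream *Cdkn1a* start, not shown, held 2 GC boxes and no p53 element. The neighbours *Cdkn2a* and *Cdkn2b* thus shared only the GC box among the letters searched, and a match is a description of the sequence, not a site in use.

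*Ccnd1* (ENSMUSG00000070348, chromosome 7 from 144929931 to 144939869, minus strand, mm10) encodes cyclin D1, the D cyclin most directly raised by growth factors. It was counted 3916, 3032 and 4150 times in the KO-labelled libraries and 634, 658 and 702 times in the WT-labelled ones. In TMM-scaled CPM these were 321, 227 and 268 against 44.4, 44.9 and 49.9. Each library labelled KO was far above every library labelled WT, and the libraries labelled KO also spread more (coefficient of variation 17.2% against 6.58%). The log2 fold change was 2.55 (SE 0.12, adjusted p = 7.87e-06 from edgeR), a 5.86-fold higher level with a 95% confidence interval of 4.82 to 7.12. Among the 14084 genes tested, 297 (2.11%) had a larger log2 fold change. Over the 14 alternatives the value ran from 2.42 to 2.95 and stayed past the threshold in each. The endothelial markers had a median log2 fold change of 2.64 in the same comparison (16 of 20 higher, beside 17.7% of all genes tested), close to that of *Ccnd1*, and their part in its rise was not tested. *Oraov1*, on the opposite strand, shares 1100 exon bases with *Ccnd1* in GENCODE vM21, the most shared exon bases of any member. This is 26.1% of the length behind the FPKM of *Ccnd1*, although the deposited loci of both genes overlap by only 818 bases. *Oraov1* was counted 168 to 237 times per library, fewer than *Ccnd1* in any library.

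*Ccnd2* (ENSMUSG00000000184, chromosome 6 from 127125162 to 127152193, minus strand) encodes cyclin D2, which acts on the same kinases. Its levels were 370, 385 and 383 CPM in the KO-labelled libraries and 458, 472 and 467 CPM in the WT-labelled ones. The replicates lay close together (coefficient of variation 2.11% and 1.53%) and the labels did not overlap. The log2 fold change was -0.30 (SE 0.04, adjusted p = 0.00108 from edgeR), 1.23-fold higher in the WT-labelled libraries, but under marker scaling it was 0.10 (adjusted p = 0.125 from edgeR). *Ccnd2* thus fell relative to most genes, and its direction depended on the scaling, neither of which measures an absolute level.

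*Ccnd3* (ENSMUSG00000034165, chromosome 17 from 47505051 to 47599691, plus strand) encodes cyclin D3, which is prominent in blood and muscle lineages. It had 61.6, 56.3 and 31.3 CPM in the KO-labelled libraries and 55.0, 50.3 and 22.9 CPM in the WT-labelled ones. Replicate 3 was far below the others in both labels, and the labels overlapped. The log2 fold change was 0.21 (95% confidence interval -0.56 to 0.99, adjusted p = 0.668 from edgeR), and without WT replicate 3 it was -0.09. Of all members *Ccnd3* was measured least precisely, so any fold from 0.678 to 1.98 lies within the interval. With the replicate number as a block its log2 fold change was 0.25 (adjusted p = 0.0678 from edgeR). Under marker scaling it was 0.60 (adjusted p = 0.146 from edgeR).

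**Figure D1:**
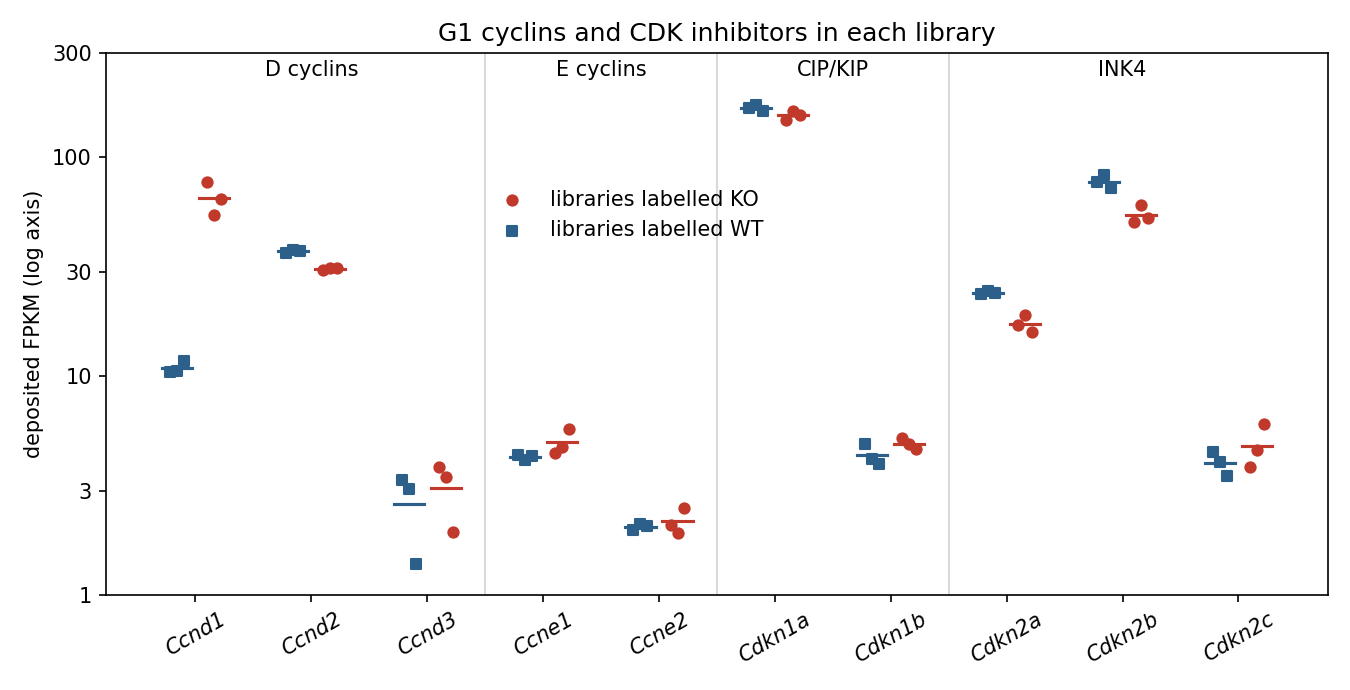
Deposited FPKM of each member in each library on a log axis, with circles for the 3 libraries labelled KO, squares for the 3 labelled WT and a bar at each mean. *Ccnd1* is the only member whose libraries labelled KO (54.3 to 77.4 FPKM) lie several-fold from those labelled WT (10.4 to 11.7 FPKM), and *Ccnd3* shows a low replicate 3 in both labels.

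Within a library, the ratio of 2 members does not depend on how the libraries are scaled. The log2 ratio of *Ccnd1* to *Ccnd2* (FPKM) was 1.35, 0.79 and 1.04 in the KO-labelled libraries and -1.81, -1.84 and -1.67 in the WT-labelled ones. *Ccnd1* was thus above *Ccnd2* in each library labelled KO and below it in each library labelled WT on the deposited FPKM. The difference was 2.84, a 7.14-fold shift (exact two-sided permutation test over 3 against 3 libraries, p = 0.1, the smallest this design allows, adjusted p = 0.16 over 8 pairs). The *Ccnd1* to *Ccnd3* ratio differed by 2.28, also without overlap (exact p = 0.1, adjusted 0.16), and the *Ccnd2* to *Ccnd3* ratio by -0.56 with overlap (exact p = 0.4, adjusted 0.457). Single libraries set the size of the latter, which was -0.15 without WT replicate 3 and ran to -0.87 without KO replicate 3.

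*Ccnd1* made up 65.4% ± 4.19 (SD, n = 3) of the summed D cyclin FPKM in the KO-labelled libraries and 21.5% ± 1.51 in the WT-labelled ones, while *Ccnd2* made up 31.5% ± 3.98 and 73.4% ± 0.670. The sum itself was 99.4 ± 11.4 FPKM in the KO-labelled libraries and 50.7 ± 0.419 FPKM in the WT-labelled ones, 1.96-fold higher. The shares and the sum rest on the gene length behind the deposited FPKM, which for *Ccnd3* was 16274 bases against 2113 in its longest coding transcript (GENCODE vM21) and for *Ccnd2* 12354 against 6330. Per length of the longest coding transcript, *Ccnd1* made up 46.4% ± 4.67 against 11.8% ± 1.62, *Ccnd2* 38.6% ± 4.26 against 69.5% ± 5.12, and *Ccnd3* 15.0% ± 4.26 against 18.7% ± 6.73, and the sum was 1.51-fold higher. On both lengths *Ccnd2* was the main D cyclin of the WT-labelled libraries, and *Ccnd1* had the largest mean share in the KO-labelled ones, although on the second length its level per length (61.1 to 87.1) met that of *Ccnd2* (59.4 to 61.2) in these libraries.

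**Figure D2:**
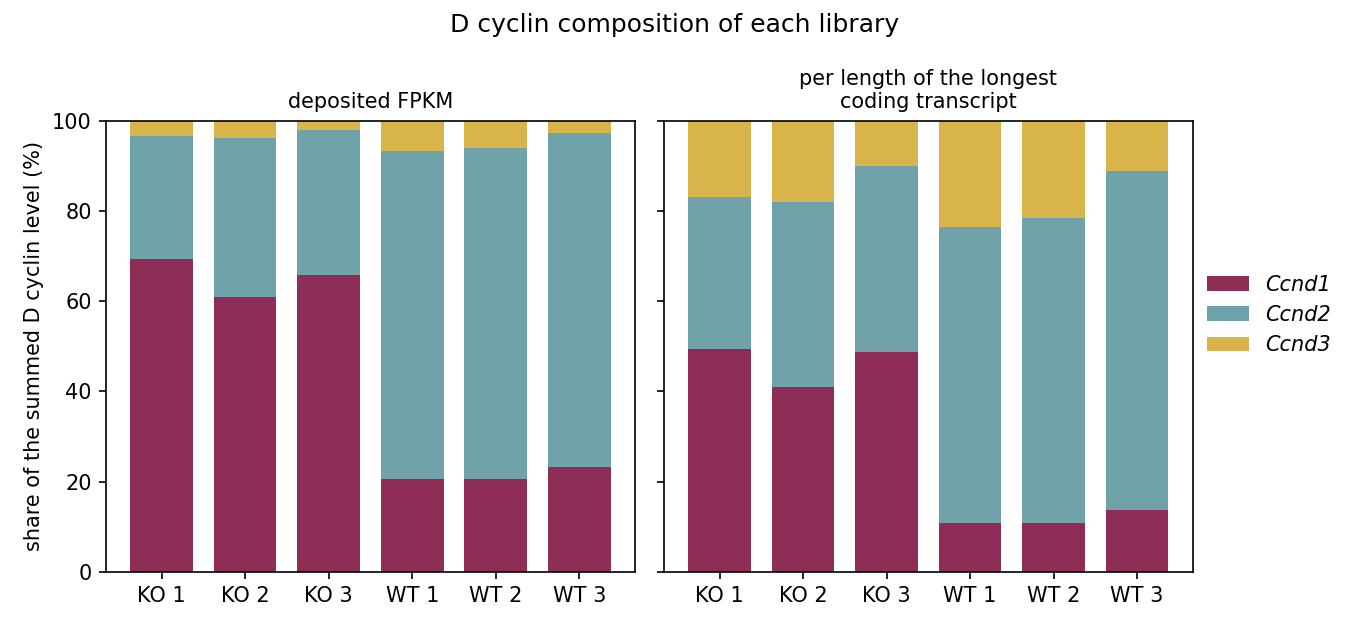
Share of *Ccnd1*, *Ccnd2* and *Ccnd3* in the summed D cyclin level of each of the 6 libraries (%), with the deposited FPKM on the left and levels per length of the longest coding transcript on the right. The *Ccnd1* part is larger in each library labelled KO than in any labelled WT on both lengths, while the *Ccnd3* part grows on the second length.

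The E cyclins did not pass the threshold. *Ccne1* (ENSMUSG00000002068, chromosome 7 from 38097984 to 38107534, minus strand) encodes cyclin E1 and had 16.5, 17.7 and 21.3 CPM in the KO-labelled libraries and 16.5, 15.8 and 16.5 CPM in the WT-labelled ones. The lowest library labelled KO was level with the highest labelled WT to 3 digits. This was a log2 fold change of 0.19 (95% confidence interval -0.07 to 0.44, adjusted p = 0.243 from edgeR), 0.079 without KO replicate 3, and under marker scaling 0.58 (adjusted p = 0.00287 from edgeR).

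*Ccne2* (ENSMUSG00000028212, chromosome 4 from 11191351 to 11204779, plus strand) encodes cyclin E2, the close relative of cyclin E1. It had 16.0, 14.9 and 19.3 CPM in the KO-labelled libraries and 15.5, 16.7 and 16.2 CPM in the WT-labelled ones, with overlap. The fitted log2 fold change was 0.05 (95% confidence interval -0.21 to 0.32, adjusted p = 0.754 from edgeR), 0.45 under marker scaling (adjusted p = 0.0157 from edgeR) and -0.06 without KO replicate 3. The log2 ratio of *Ccne1* to *Ccne2* differed by 0.13 between the labels (exact two-sided permutation test, p = 0.2, adjusted 0.267) and by 0.08 without KO replicate 2. On the TMM scale the intervals of both E cyclins thus leave room for a rise of at most 1.36-fold and 1.25-fold, well under the fold of *Ccnd1*.

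The CIP/KIP inhibitors were not called. *Cdkn1a* (ENSMUSG00000023067, chromosome 17 from 29090979 to 29100722, plus strand) had 450, 498 and 472 CPM in the KO-labelled libraries and 524, 540 and 506 CPM in the WT-labelled ones. The labels did not overlap, but the gap was small. A log2 fold change of -0.14 (SE 0.05, 95% confidence interval -0.26 to -0.03, adjusted p = 0.064 from edgeR) was fitted. It passed the threshold with upper quartile scaling (-0.19, adjusted p = 0.032) and without KO replicate 2 (-0.17, adjusted p = 0.0363), and under marker scaling it was called higher (0.25, adjusted p = 0.00301, all from edgeR), so no direction can be given for it.

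*Cdkn1b* (ENSMUSG00000003031, chromosome 6 from 134920401 to 134925513, plus strand) encodes p27, which is mostly set by protein breakdown. It had 39.1, 36.8 and 34.7 CPM in the KO-labelled libraries and 37.3, 32.1 and 30.5 CPM in the WT-labelled ones, with overlap. Its log2 fold change was 0.14 (95% confidence interval -0.07 to 0.36, adjusted p = 0.276 from edgeR), 0.084 without WT replicate 3, 0.23 without WT replicate 1, and under marker scaling 0.54 (adjusted p = 0.00163 from edgeR). The log2 ratio of *Cdkn1a* to *Cdkn1b* was lower by 0.29 in the KO-labelled libraries, a difference of -0.29 without overlap (exact two-sided permutation test, p = 0.1, adjusted 0.16). *Cdkn1a* made up 96.9% ± 0.290 of the summed CIP/KIP FPKM of the pair in the KO-labelled libraries and 97.5% ± 0.254 in the WT-labelled ones.

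The INK4 genes at the chromosome 4 locus were lower by the main test. *Cdkn2a* (ENSMUSG00000044303, chromosome 4 from 89274471 to 89294653, minus strand) had 23.8, 26.6 and 22.1 CPM in the KO-labelled libraries and 33.9, 34.9 and 34.1 CPM in the WT-labelled ones. Its log2 fold change was -0.51 (SE 0.09, adjusted p = 0.00304 from edgeR), 1.42-fold higher in the WT-labelled libraries, and under marker scaling -0.12 (adjusted p = 0.252 from edgeR). The count is per gene, so the p16INK4a and p19ARF transcripts shown above by their starts were not told apart.

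*Cdkn2b* (ENSMUSG00000073802, chromosome 4 from 89306289 to 89311032, minus strand) encodes p15INK4b, an inhibitor known to be raised by TGF-β. It had 69.3, 83.6 and 72.7 CPM in the KO-labelled libraries and 108, 117 and 102 CPM in the WT-labelled ones. Each library labelled KO was below every library labelled WT, as for *Cdkn2a*. Its log2 fold change was -0.54 (SE 0.08, adjusted p = 0.00211 from edgeR), 1.45-fold higher in the WT-labelled libraries, and under marker scaling -0.15 (adjusted p = 0.132 from edgeR). Of all genes tested, 5.35% lay below *Cdkn2a* and 4.48% below *Cdkn2b*. The fibroblast markers had a median of -0.43, the cardiomyocyte markers of -0.41 and the macrophage markers of -0.39 in the same comparison, and the part of these cells in the lower INK4 levels was not tested.

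*Cdkn2c* (ENSMUSG00000028551, chromosome 4 from 109660876 to 109667189, minus strand) encodes p18INK4c and lies far from the other INK4 members. It had 10.6, 12.9 and 16.8 CPM in the KO-labelled libraries and 12.9, 11.7 and 10.0 CPM in the WT-labelled ones, with overlap. The change was 0.23 on the log2 scale (95% confidence interval -0.18 to 0.64, adjusted p = 0.367 from edgeR), only 0.037 without KO replicate 3, and under marker scaling 0.62 (adjusted p = 0.0153 from edgeR). It was the member with the lowest counts (130 to 261), which limits its precision.

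The ratio of the neighbours *Cdkn2a* and *Cdkn2b* differed by less than the spread between replicates. Their log2 ratio was -1.55, -1.66 and -1.74 in the KO-labelled libraries and -1.69, -1.76 and -1.60 in the WT-labelled ones, a difference of 0.03 (exact two-sided permutation test, p = 0.7, adjusted 0.7) that became -0.02 without KO replicate 1 and -0.01 without WT replicate 2. Against *Cdkn2c*, both were lower in the KO-labelled libraries whatever the scaling: the log2 ratio differed by -0.72 for *Cdkn2a* and by -0.75 for *Cdkn2b*, each without overlap (exact two-sided permutation p = 0.1, adjusted 0.16, for each). KO replicate 3 set part of the size of both. Its log2 ratio was 1.40 for *Cdkn2a*, against 2.17 and 2.05 in the other libraries labelled KO. For *Cdkn2b* it was 3.13, against 3.72 and 3.72. The summed level of the 3 INK4 members, without *Cdkn2d*, was 76.7 ± 6.45 FPKM in the KO-labelled libraries and 105.5 ± 5.74 FPKM in the WT-labelled ones, and *Cdkn2b* made up 71.1% ± 0.706 and 73.3% ± 0.960 of it.

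**Figure D3:**
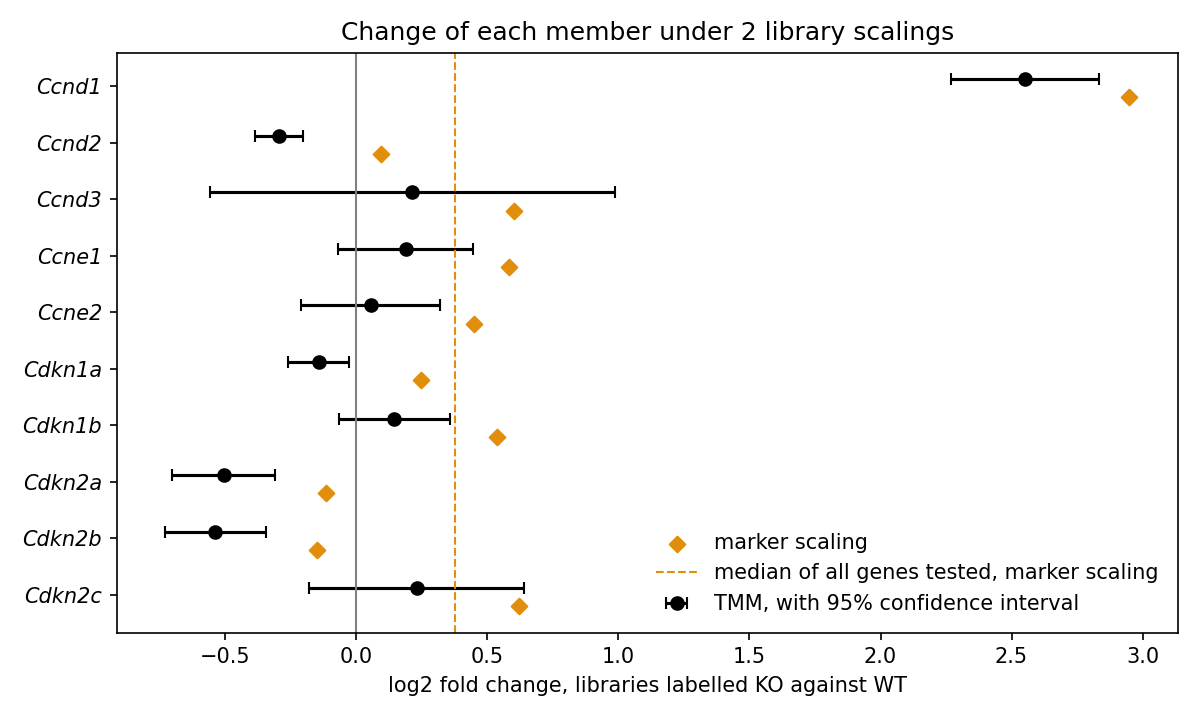
Log2 fold change of each member, libraries labelled KO against WT (3 each), as circles with the 95% confidence interval on TMM-scaled counts and as diamonds under marker scaling, with the median of all genes tested under marker scaling (0.38) as a dashed line. *Ccnd1* is at 2.55 and 2.95, and *Ccnd2* (-0.30 and 0.10) and *Cdkn1a* (-0.14 and 0.25) lie on different sides of 0 under the 2 scalings.

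Per length (deposited FPKM), *Cdkn1a* was the highest member in both labels, at 156 ± 7.13 in the KO-labelled libraries and 168 ± 5.16 in the WT-labelled ones. In the libraries labelled KO *Ccnd1* (65.3 ± 11.6) and *Cdkn2b* (54.6 ± 5.14) followed with overlapping libraries, then *Ccnd2* (31.0 ± 0.526) and *Cdkn2a* (17.4 ± 1.59). In the libraries labelled WT the order was *Cdkn2b* (77.4 ± 5.22), *Ccnd2* (37.2 ± 0.478), *Cdkn2a* (24.1 ± 0.329) and *Ccnd1* (10.9 ± 0.715), with no overlap between neighbours in this order. *Ccnd1* was therefore the 5th of the 10 members per length in the WT-labelled libraries and the 2nd in the KO-labelled ones. The other 5 members had means of 2.05 to 4.98 FPKM in either label, and most neighbours in that order overlapped. Per length of the longest coding transcript *Ccnd1* was the 6th and the 2nd, and *Ccnd3* moved up from the 9th place to the 5th (libraries labelled WT) and the 6th (libraries labelled KO), where in the WT-labelled libraries its range (10.7 to 25.7) held that of *Ccnd1* (11.7 to 13.2).

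The other genes of G1 and S entry were mixed on the TMM scale. Of 32 tested, 10 were higher, 2 were lower and 20 were not called, beside 17.7% of all genes tested higher and 12.5% lower, and the median log2 fold change was 0.00. Under marker scaling 25 were higher and none of the 32 lower, with a median of 0.40, beside 60.1% higher and a median of 0.38 over all genes tested. *Cdk2*, the kinase of the E cyclins, had 44.5, 43.7 and 46.2 CPM in the KO-labelled libraries and 27.8, 23.5 and 33.0 CPM in the WT-labelled ones, a log2 fold change of 0.67 (SE 0.11, adjusted p = 0.00322 from edgeR). The kinases of the D cyclins were not called on the TMM scale. *Cdk4* had a log2 fold change of 0.17 (adjusted p = 0.105 from edgeR), which was 0.11 when WT replicate 2 was left out, 0.25 and called when WT replicate 3 was left out and 0.56 and called under marker scaling (adjusted p = 0.0166 and 2.59e-04 from edgeR). *Cdk6* had a log2 fold change of -0.13 (adjusted p = 0.095 from edgeR), which was -0.17 and called lower with upper quartile scaling and 0.26 and called higher under marker scaling (adjusted p = 0.0407 and 0.00654 from edgeR). *Cdk7*, of the kinase that activates other CDKs, was lower (-0.37, adjusted p = 0.00462 from edgeR), but at 0.02 under marker scaling.

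The genes of the RB and E2F families held 7 of the 10 rises, among 11 family members tested, where 17.7% of all genes tested were higher. *E2f1*, an activator of S phase genes, had 42.7, 37.8 and 39.4 CPM against 24.8, 23.7 and 24.5 CPM, a log2 fold change of 0.72 (SE 0.07, adjusted p = 2.83e-04 from edgeR). *E2f2* was at 0.87, and the repressors *E2f7* and *E2f8*, which damp E2F targets late in S phase, at 0.75 and 1.10. *E2f6* was also higher (0.38), and *E2f3* (-0.06), *E2f4* (0.09) and *E2f5* (-0.0046) were not called, these 4 being outside the rule for named genes and added after their values were seen. Of the pocket proteins, *Rb1* (0.41) and *Rbl1* (0.74) were higher, and *Rbl2*, which is typical of resting cells, was not called (-0.13, between -0.20 without KO replicate 3 and -0.04 without KO replicate 1, and 0.26 under marker scaling). *Ccna2*, the S phase cyclin, was higher (0.49). All the rises named in this paragraph were called by edgeR with adjusted p from 2.83e-04 to 0.00592.

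The CDK inhibitors outside the 10 members moved in opposite directions. *Cdkn2d*, the INK4 gene for p19INK4d, had 16.5, 16.9 and 17.7 CPM in the KO-labelled libraries and 9.80, 10.3 and 8.25 CPM in the WT-labelled ones, a log2 fold change of 0.85 (SE 0.11, adjusted p = 0.00104 from edgeR). *Cdkn1c*, the CIP/KIP gene for p57, had 4.99, 5.10 and 4.32 CPM against 8.96, 7.17 and 7.04 CPM, a log2 fold change of -0.69 (SE 0.16, adjusted p = 0.0121 from edgeR), which without KO replicate 3 had an adjusted p of 0.0514 and under marker scaling was -0.30 (adjusted p = 0.133). Within INK4, *Cdkn2a* and *Cdkn2b* were thus lower and *Cdkn2d* higher on the TMM scale. *Skp2*, which marks p27 for breakdown, *Myc* and the CDK phosphatase gene *Cdc25a* were not called on the TMM scale (0.26, -0.20 and -0.05). *Skp2* was at 0.16 without KO replicate 3 and *Cdc25a* at 0.03 without KO replicate 1 and -0.11 without KO replicate 3. Without KO replicate 1 *Myc* was at -0.26 and called lower, with an adjusted p from edgeR just under the threshold that rounds to 0.05. Under marker scaling *Skp2* (0.66, adjusted p = 0.00237 from edgeR) and *Cdc25a* (0.34, adjusted p = 0.0118 from edgeR) were called higher and *Myc* (0.19, adjusted p = 0.123 from edgeR) was not.

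Beyond the G1 gate, the genes of S phase and mitosis were higher almost throughout. Of 24 E2F-driven S phase genes 22 were higher and none of the 24 lower, with a median of 0.65, and of 20 mitotic genes 19 were higher and none of the 20 lower, with a median of 0.86, where 17.7% of all genes tested were higher and 12.5% lower. *Cdc6*, which loads the replicative helicase, had 28.5, 28.5 and 30.6 CPM against 9.73, 10.5 and 10.5 CPM, a log2 fold change of 1.51 (SE 0.09, adjusted p = 1.45e-05 from edgeR). *Cdc45* (1.18) and *Mcm3* (1.08), both of the helicase itself, were the next largest. Among the mitotic genes the centromere gene *Cenpf* (1.69), the topoisomerase gene *Top2a* (1.44), *Birc5* (1.40) and the kinase gene *Aurka* (1.18) rose most. *Mki67*, the common marker of dividing cells, had 181, 171 and 202 CPM against 105, 111 and 116 CPM (log2 fold change 0.74, adjusted p = 2.01e-04 from edgeR). The E cyclins, which are E2F targets themselves, stayed at 0.19 and 0.05, below the medians of both lists on the same scale.

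**Figure D4:**
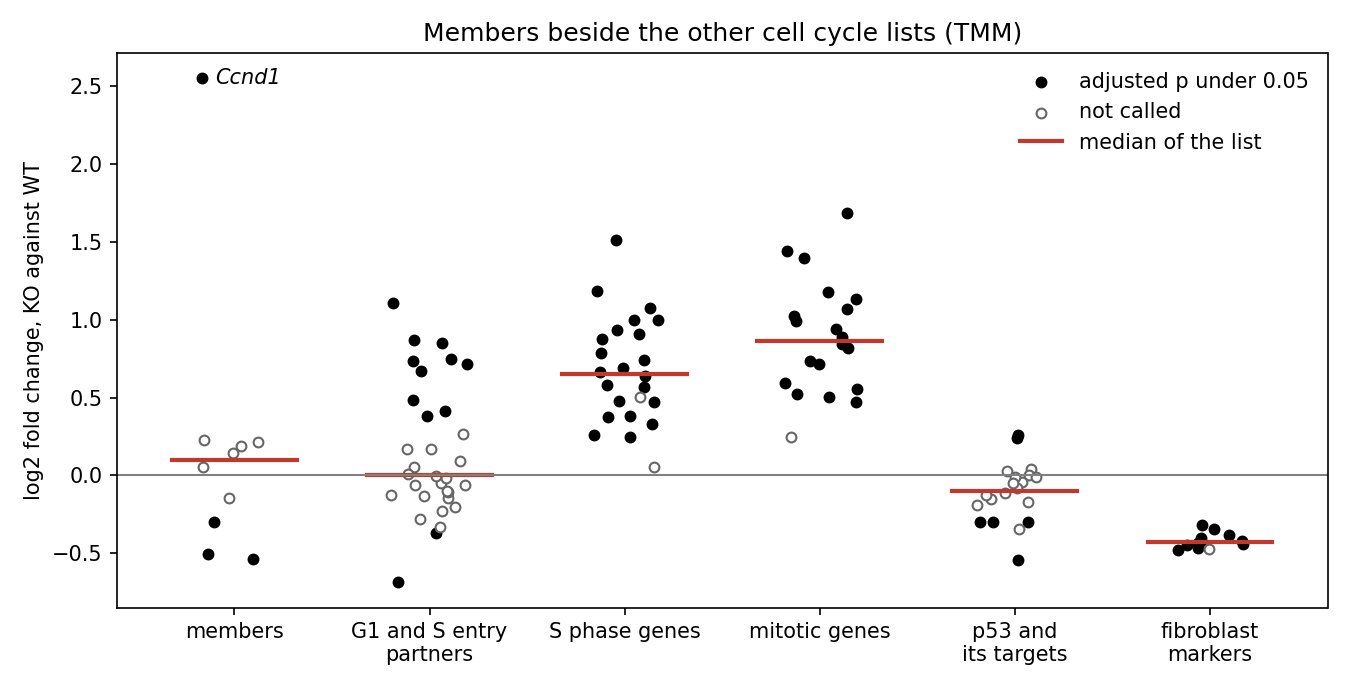
Log2 fold change of each gene tested, libraries labelled KO against WT (3 each, TMM scale), in the 10 members, the 32 G1 and S entry partners, 24 S phase genes, 20 mitotic genes, 20 genes of p53 and its targets and 12 fibroblast markers, with filled points for an adjusted p under 0.05 and a line at the median of each list. *Ccnd1* (2.55) lies above every gene of the other lists shown, and the medians are 0.65 for S phase, 0.86 for mitotic and 0.10 for the members. Under marker scaling these 3 medians are 1.04, 1.26 and 0.49.

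*Cdkn1a* was also set beside p53 and its targets. Of these 20 genes 2 were higher and 4 lower, beside the 17.7% and 12.5% of all genes tested. On the TMM scale 15 of the 20 lay below 0 (52.3% of all genes tested), all KO-labelled libraries lay below the WT-labelled ones in 8 (22.4% of all genes tested) and above them in 2 (24.7%), and the median was -0.10, while 10 were higher and none of the 20 lower under marker scaling (median 0.29), where 60.1% of all genes tested were higher (median 0.38). *Trp53*, which encodes p53, had 206, 182 and 175 CPM in the KO-labelled libraries and 244, 217 and 232 CPM in the WT-labelled ones, a log2 fold change of -0.30 (SE 0.07, adjusted p = 0.015 from edgeR) that was 0.10 under marker scaling and not called without KO replicate 3 or WT replicate 1 (adjusted p = 0.0618 and 0.053). *Mdm2*, which p53 raises and which breaks p53 down, was higher (0.26, adjusted p = 0.0155 from edgeR, but 0.0597 without WT replicate 2), and *Ccng1* and *Btg2* were lower (-0.30 each, both 0.09 under marker scaling). The calls of *Plk2* (0.24, adjusted p = 0.0498 from edgeR) and *Perp* (-0.54, adjusted p = 0.0329 from edgeR) were lost when single libraries were left out: for *Plk2* KO replicate 3 or any library labelled WT (adjusted p = 0.0507 to 0.118), with a log2 fold change of 0.14 without KO replicate 1, and for *Perp* any library labelled KO or WT replicate 2 or 3 (adjusted p = 0.0612 to 0.104).

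Some counts may hold reads of other genes, those of *Ccnd1* and *Oraov1* included, because the sources used here do not give the strand setting of the counting. *Ccne2* shares 609 exon bases (7.82% of its length) with *Ints8* on the opposite strand, and *Ints8* had 475 to 731 counts where *Ccne2* had 196 to 299. *Ccnd3* shares 361 bases (2.22%) with *Bysl*, which had 741 to 945 counts.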

How the data were processed

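RNA-seq was performed on 3 libraries labelled KO and 3 labelled WT. Per the paper and the submitters' processing notes, the authors mapped paired-end reads to mm10 (GRCm38.p4) with HISAT2, and the notes list edgeR. The deposited count values are whole-number reads or fragments per gene, not normalized. The deposited FPKM are these counts per gene length and library total. The counting tool, its strand setting, the annotation release and whether cells were cultured before RNA isolation are not given in the sources used here.

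Groups were taken from the sample labels. Counts were tested on the whole table in R 4.3.3 by the quasi-likelihood test of edgeR 4.0.16 (filterByExpr, TMM scaling, two-sided, Benjamini-Hochberg over 14084 genes), and calls had an adjusted p under 0.05. Ratios of members within a library used exact permutation tests (SciPy 1.17.1). The edgeR test, but not the permutation test, was checked on simulated data. As many genes were raised as lowered there, so the check does not cover the choice of scaling. With 3 libraries per label the precision is limited by their number, and counts of 12025403 to 15329427 per library set the counting error. Replicates of a label differed beyond sampling noise.

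The alternatives tried were DESeq2 1.42.0, marker scaling, library size or upper quartile scaling, limma 3.58.1 on log2(FPKM + 1), omitting the filter or asking for a mean of 1 CPM, a block for the replicate number, leaving out single libraries, and for ratios a pseudocount of 0.1. The length of the longest coding transcript was added after seeing the data. The members and lists were chosen with earlier results of these data known. The named genes were all members, *Kdm5b*, the 4 largest called rises and falls of each pathway list, and a fixed set of G1 regulators. Promoter sequences are from RefSeq (GRCm38.p6), and overlaps and transcript lengths from GENCODE vM21. Figures were drawn with matplotlib 3.10.9.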

Additional observations from a re-analysis of the deposited data

How the results depend on the processing

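Of the members, the rise of *Ccnd1* kept its direction and its call under all 14 alternatives, including DESeq2 and limma on log2(FPKM + 1). Marker scaling, which lifts the median of all genes tested from -0.02 to 0.38, changed most other values: *Ccnd2* became 0.10, *Cdkn1a* 0.25, *Cdkn2a* -0.12 and *Cdkn2b* -0.15, and *Ccne1* (0.58), *Ccne2* (0.45), *Cdkn1b* (0.54) and *Cdkn2c* (0.62) were called higher. It gave 6 of 10 members, 25 of 32 partners and 10 of 20 p53 genes higher and 0 lower in each list. Beside these, 60.1% of all genes tested were higher and 0.355% lower under this scaling. Marker scaling also turned *Cdk7* to 0.024, *Btg2* to 0.090, *Ccng1* to 0.091, *Trp53* to 0.10, *Cdk6* and *Rbl2* to 0.26, *Myc* to 0.19, *Cdc25a* to 0.34 and *Kdm5b* to 0.17. Of all calls, 2488 were higher and 1760 lower with TMM, and 8464 and 50 with marker scaling. With upper quartile scaling *Cdkn1a* was called at -0.19, *Kdm5b* at -0.26, and 1 p53 gene was higher.

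Leaving out each library in turn gave 2.42 to 2.67 for *Ccnd1*, -0.31 to -0.27 for *Ccnd2*, -0.088 to 0.47 for *Ccnd3*, 0.079 to 0.27 for *Ccne1*, -0.057 to 0.14 for *Ccne2*, -0.17 to -0.10 for *Cdkn1a*, 0.084 to 0.23 for *Cdkn1b*, 0.037 to 0.38 for *Cdkn2c*, -0.57 to -0.44 for *Cdkn2a* and -0.61 to -0.48 for *Cdkn2b*, and -0.11 to 0.026 for *Cdc25a*. The *Cdkn2a* to *Cdkn2b* log2 ratio differed by -0.018 to 0.074, and by -0.0079 without WT replicate 2. The *Ccnd2* to *Ccnd3* log2 ratio differed by -0.87 to -0.15. *Kdm5b* was called without WT replicate 1 (-0.29, adjusted p = 0.0188 from edgeR). The lower calls numbered 1 to 3 among the partners (1 without KO replicate 3) and 2 to 4 among the p53 genes (2 without KO replicate 3), and the higher calls 0 to 2 among the p53 genes (0 without WT replicate 2 and 1 without KO replicate 3, WT replicate 1 or WT replicate 3).

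The replicate number as a block gave 2316 genes higher and 1591 lower, 1 p53 gene higher (*Mdm2*, with *Plk2* at an adjusted p of 0.0531 from edgeR), and *Kdm5b* at -0.21 (adjusted p = 0.0271 from edgeR). It changed no call of a member. Deviations of same-numbered libraries from their label means correlated at 0.00211, 0.00318 and 0.0347, so the numbers were not taken as pairs. Genes under about 20 CPM, such as *Cdkn2c* and the E cyclins, have the fewest counts behind them, and the cause of the changes with single libraries was not tested.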
